A study of Mus musculus with 63 samples.

Results

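The genes described here encode the subunits of the receptors for glutamate, GABA and glycine, measured in stem cells, progenitors and newborn neurons of the embryonic mouse cortex. They were chosen by symbol (Gria, Grik, Grid, Grin and Grm followed by a digit, Gabr with a, b, d, e, g, p, q or r, Gabbr1, Gabbr2, Glra and Glrb) and by a TPM value above 0 in at least 3 libraries. TPM is a level per transcript length, scaled to the same total in each library, so that levels of different genes in a library can be set side by side. The rule takes 53 of 23078 genes in the table, and all 53 symbols with such a name met the second condition. The gene above 0 in the fewest libraries was Gabrr3, with 15 of 63. The rule uses no contrast between groups. It also takes Grid2ip, which encodes a protein that binds the delta receptor and is not itself a subunit.

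Glutamate opens AMPA, kainate and NMDA receptor channels, which are tetramers and let cations in, and it also acts on the metabotropic receptors (Grm genes), which signal through G proteins. GABA opens GABA-A receptors, pentamers built mostly of alpha, beta and gamma subunits that pass chloride, and acts on the G protein-coupled GABA-B receptor. Glycine opens a related chloride channel made of alpha subunits alone or of alpha and beta subunits. In the embryonic cortex these receptors are known to be present before synapses form, and because immature neurons hold much chloride, GABA and glycine tend to depolarise them.

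The study sorted cells from the dorsal cerebral cortex of C57Bl/6 mouse embryos that all carried a Ski knock-out. Neural stem cells (NSC) were sorted by the reporter Hes5::GFP at embryonic days (E) 11.5 to 18.5, in 26 libraries of 8 groups. Basal progenitors (BP), the intermediate progenitors of cortical neurons, were sorted by Tbr2::GFP at E12.5 to E18.5, in 24 libraries of 7 groups. Newborn neurons (NBN) came from the same Tbr2::GFP reporter at E15.5 to E18.5, in 13 libraries of 4 groups. Groups hold 2 libraries (BP E12.5) to 6 libraries (BP E14.5). With no wild type library analysed, the values hold for cells without Ski and do not measure what the loss of Ski does. The sources used here give neither the gate that parts BP from NBN among Tbr2::GFP cells nor the part of Ski that was deleted. The labels do not say that replicates are separate embryos or litters, so p-values measure the spread between these libraries, which may be technical.

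Ski mRNA had group means of 17.6 to 44.9 TPM, which checks nothing without knowing the deleted part. Hes5 and Eomes (Tbr2), the genes behind the reporters, had median TPM of 113 and 262 in NSC, 3.39 and 453 in BP, and 4.09 and 19.5 in NBN. All 63 libraries are labelled female, but 39 of them held at least 10 TPM of summed Y-linked genes and 26 held at least 10 TPM of Xist, with 2 holding both. A list of 10 newborn neuron markers (among them Tubb3, Dcx and Neurod6) summed to 955 to 8480 TPM in NSC, 5235 to 7971 in BP and 9096 to 12139 in NBN, so that neuronal transcripts were abundant in every sort. In NSC the median of this sum was 2249 TPM at E11.5, 7543 at E17.5 and 3486 at E18.5. A list of 11 interneuron markers summed to 126 to 1146 TPM in NSC, 11.5 to 62.8 in BP and 12.8 to 77.0 in NBN, and 10 of the 11 genes were at 1 TPM or more in all NSC libraries. Markers of the oligodendrocyte lineage (6 genes) and of astrocytes (7 genes) summed to 285 to 571 and 247 to 450 TPM in NSC of E18.5, against 29.0 to 81.9 and 56.5 to 101 in NSC of E17.5. None of these 4 lists had a gene at 0 in all libraries of NSC, and the part of such cells in the receptor levels was not tested. In bulk libraries, fewer cells of a type and less RNA per cell cannot be told apart. A set of 6 libraries was set apart for their marker sums, by no stated limit, and counts without them are given with the comparisons. From NSC these were E12.5 replicate 2, E14.5 replicate 1, E17.5 replicate 1 and E18.5 replicate 1. From BP they were E16.5 replicate 2 and E17.5 replicate 3, and the set holds no NBN library. Libraries outside the set also lay far from their groups. Summed erythroid markers stood at 3554 TPM in NSC E12.5 replicate 4 (group median 148.7) and 2743 TPM in BP E16.5 replicate 3 (group median 207.3). Summed microglia markers had medians of 5.49 TPM in NBN of E15.5 and 112.9 TPM in NBN of E18.5. The counts without the set are therefore no full check for other cell types.

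**Figure D1:**
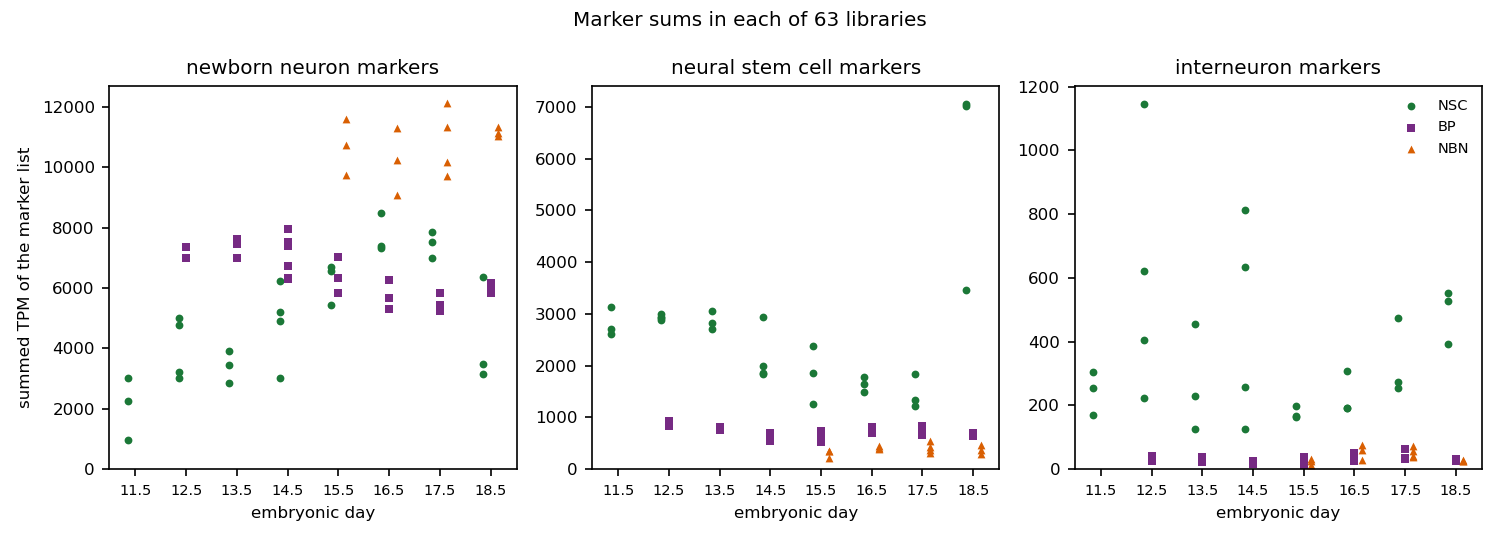
Summed TPM of the newborn neuron, neural stem cell and interneuron marker lists (y axes) against embryonic day (x axes), 1 point per library, coloured by cell type. Newborn neuron markers lie between 9096 and 12139 TPM in NBN, above all NSC and BP libraries, and in NSC their median is 7543 TPM at E17.5 and 3486 TPM at E18.5.

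Receptor transcripts were present from the first day on and ranged widely between genes. In the group of its highest mean, 26 of the 53 genes reached 10 TPM, 18 lay between 1 and 10 TPM, and 9 stayed under 1 TPM. The highest class members by mean level were Gabbr1 (59.6 to 321 TPM in group means), the ligand-binding GABA-B subunit, Gria2 (10.6 to 170.3 TPM), the AMPA subunit that limits calcium entry, and Grik5 (64.1 to 129 TPM), a kainate subunit that needs a partner to form a channel. Tests were limited to genes that reached 1 TPM in 3 or more libraries, and 44 of the 53 did. Their highest group mean lay in NBN for 27 genes, in NSC for 12 and in BP for 5. A gene can pass this filter through the group where it is high, so the counts below are descriptions and are set beside the same counts over all genes. The 9 genes not tested were Gabra6 (highest value 0.441 TPM), Gabrp (0.237), Gabrr1 (0.384), Gabrr2 (1.05), Gabrr3 (0.451), Glra1 (0.659), Glra3 (0.299), Glra4 (0.595) and Grm6 (0.318). They include all rho subunits, known from the retina, and Grm6, the receptor of retinal bipolar cells.

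**Figure D2:**
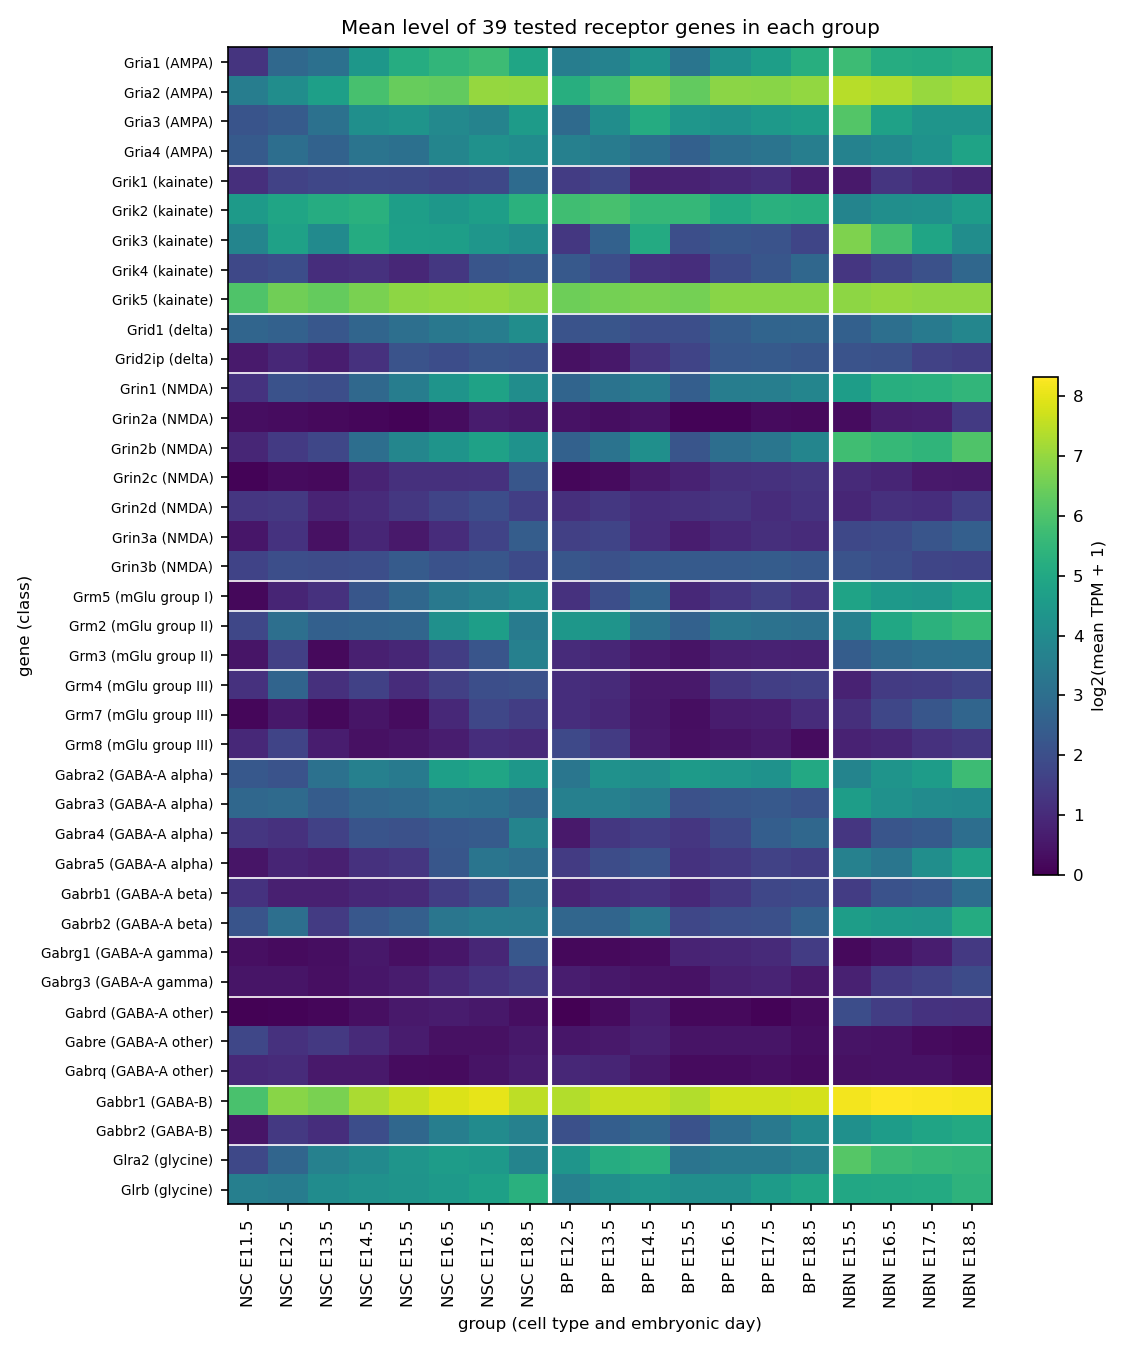
Mean level of 39 tested genes (rows, by receptor class) in the 19 groups (columns), coloured by log2(mean TPM + 1), with white lines between cell types and between classes. Gabbr1 and Grik5 are bright in every column, Gria2 goes from 10.6 TPM in NSC of E11.5 to 170.3 TPM in NBN of E15.5, and 24 of the rows are brightest in an NBN column.

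Changes were fitted with limma on log2(TPM + 1), which understates changes of low genes, and p-values were adjusted over all 15231 tested genes. A gene counts as called where the adjusted p lies under 0.05 and the log2 change is 1 or more in either direction. Newborn neurons, compared with basal progenitors of the same days, had 19 of the 44 genes higher and 1 lower, which is 45.5% called against 10.8% of all tested genes (5.75% higher and 5.09% lower). The median log2 difference over the 44 genes was 0.73, against -0.06 over all tested genes. Against NSC of the same days, NBN had 13 genes higher and 1 lower, 31.8% against 8.65% of all tested genes (2.55% higher and 6.11% lower). These calls were unevenly spread over the days: 17 genes were higher in NBN at E15.5, 2 at E16.5, 0 at E17.5 and 14 at E18.5 (3.7%, 0.985%, 0.453% and 6.65% of all tested genes). Lower than in NSC were 1 at E15.5 and 2 at E18.5 (6.2% and 13.2% of all tested genes). Against BP, 20, 17, 17 and 21 were higher on the same 4 days (6.85%, 5.23%, 5.5% and 6.36% of all tested genes). Lower than in BP were 1 at E15.5 and 1 at E17.5 (4.62% and 6.8% of all tested genes). The NBN libraries are shared by these 2 comparisons, so they are not independent. In NSC against BP over E12.5 to E18.5, 1 of 44 genes was called, Grik3, higher in NSC (2.27% against 3.03% of all tested genes, 0.466% being higher in BP). Without the 6 libraries set apart above, the calls numbered 20, 17 and 1.

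Over time, most of the tested receptor genes rose in NSC. From E11.5 to E18.5, 29 of 44 genes rose and 1 fell (68.2% against 23% of all tested genes, of which 14.8% rose and 8.17% fell), with a median log2 change of 1.48 against 0.09. All 4 AMPA genes, the GABA-A genes Gabra2, Gabra4, Gabra5, Gabrb1, Gabrb2, Gabrg1 and Gabrg3, both GABA-B genes and both tested glycine receptor genes were among those that rose, and Gabre was the gene that fell. Of the kainate genes 1 of 5 rose, of the NMDA genes 4 of 7, and of Grm4, Grm7 and Grm8 only Grm7. None of Gabrd, Gabre and Gabrq rose. In BP from E12.5 to E18.5, 8 genes rose and 5 fell (29.5% against 11.3% of all tested genes, 6.9% rising and 4.39% falling), and in NBN from E15.5 to E18.5, 13 rose and 2 fell (34.1% against 4.74%, 3.3% rising and 1.44% falling). The change in NSC was more positive than in BP for 21 genes (47.7% called in either direction against 10.5% of all genes, with 6.86% in this direction and 3.66% in the other). The change in NBN was less positive than in BP for 4 genes (9.09% against 2.4% of all genes, 1.38% in this direction) and less positive than in NSC for 5 (11.4% against 5.44%, 4.58% in this direction and 0.854% in the other). Without the 6 libraries set apart above, the calls numbered 29, 15 and 15 for the changes in NSC, BP and NBN and 17, 5 and 7 for the 3 slope differences.

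The days within the NSC and BP comparison differed. At E13.5, 1 receptor gene was higher in NSC and 12 were higher in BP (5.44% and 3.72% of all tested genes), and at E17.5, 11 were higher in NSC (3.43%). With E15.5 to E18.5 alone, a setting added after seeing the data, the slope differences called fell from 21 to 5, 4 with NSC more positive and 1 (Gria1) with BP more positive. The newborn neuron marker sum had medians of 3449.5 TPM in NSC and 7459 in BP at E13.5 and of 7543 in NSC and 5358 in BP at E17.5. At E18.5, 8 receptor genes were higher in NSC and 0 in BP (7.54% and 0.945% of all tested genes), and there the medians were 3486 TPM in NSC and 5900.2 in BP. The part of this sum in these counts was not tested.

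**Figure D3:**
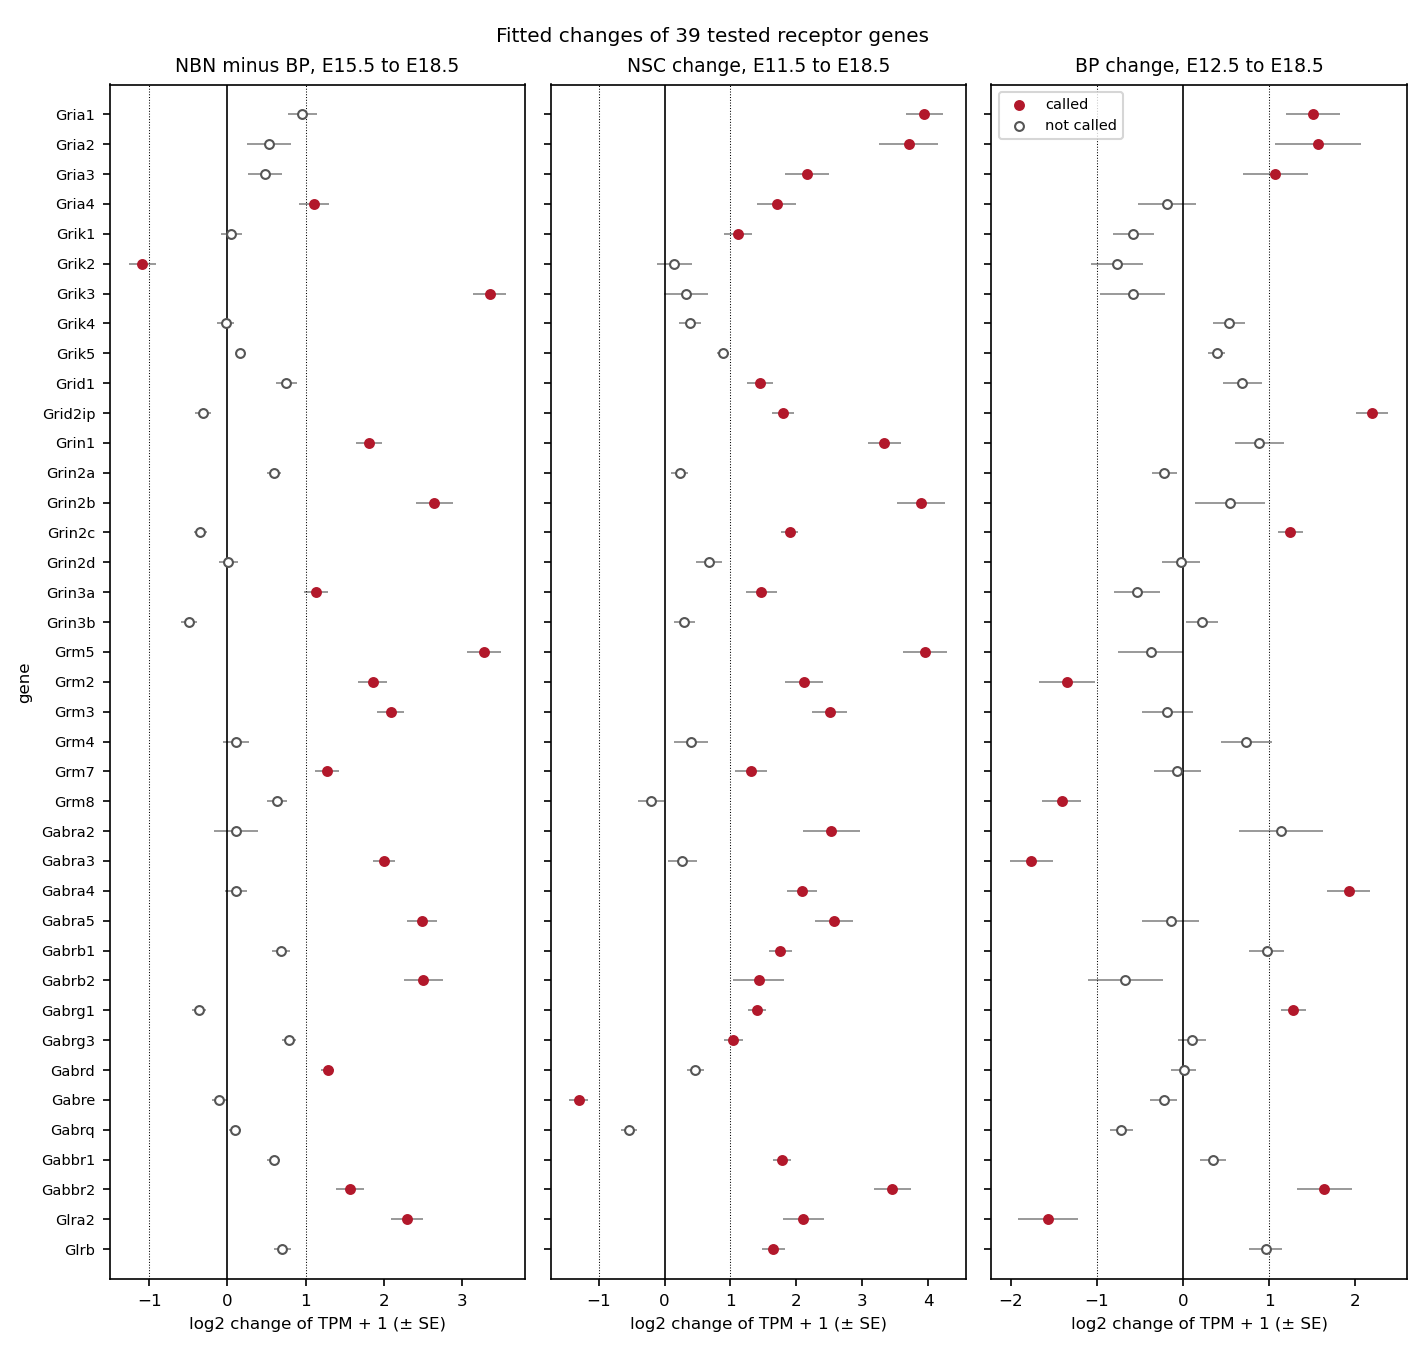
Fitted log2 changes of TPM + 1 with standard errors (x axes) for 39 tested genes (y axis) in NBN minus BP, over time in NSC and over time in BP. Filled points were called, and dotted lines mark a log2 change of 1 in either direction. Among these, in NBN against BP 15 filled points lie to the right and 1 to the left (Grik2), in NSC 26 and 1 (Gabre), and in BP 8 and 4.

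AMPA receptors carry most of the fast excitatory current of the brain, and their 4 subunits, Gria1 to Gria4, all rose in NSC. Gria1 stood at 0.369, 1.14 and 2.57 TPM in the 3 NSC libraries of E11.5, at 65.5, 42.4 and 46 TPM at E17.5 and at 55.6, 16.9 and 14.4 TPM at E18.5. The first group lies below both others, and of the E18.5 libraries only replicate 1 reaches the level of E17.5. The fitted change was 3.94 ± 0.28 (adjusted p = 5.34e-17). In BP, Gria1 stood at 8.17 and 13.1 TPM at E12.5, 8.54, 9.36 and 7.10 at E15.5 and 32.3, 38.1 and 37.8 at E18.5, a change of 1.51 ± 0.31 (adjusted p = 9.44e-05). In NBN it went from 55.5, 52.7 and 47.4 TPM at E15.5 to 33.8, 41.1 and 34.4 at E18.5. Over these days its change in NBN was less positive than in BP, by -2.38 ± 0.50 (adjusted p = 0.00169). The NSC and BP changes differed by 1.10 ± 0.42 (adjusted p = 0.0442), a call lost when any of 15 libraries was left out (0.72 to 1.13, adjusted p from 0.0268 to 0.194).

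Gria2, whose edited form makes AMPA receptors impermeable to calcium, was the most abundant AMPA gene. It was at 6.22, 8.96 and 16.6 TPM in NSC of E11.5 and at 66.6, 154 and 167 TPM at E17.5, with no overlap, and rose by 3.70 ± 0.44 (adjusted p = 4.28e-10). Its libraries of a day spread widely in the Tbr2::GFP sorts, with 257, 54.8 and 42.2 TPM in BP of E16.5 and 298, 91.3 and 76.8 TPM in NBN of E16.5. The difference between NBN and BP, 0.53 ± 0.29 (adjusted p = 0.108), was not called. Its rise in BP, 1.56 ± 0.50 (adjusted p = 0.00916), lost its call without BP E12.5 replicate 1 (1.30, adjusted p = 0.091). Gria2 made up 45.3% to 69.4% of the summed AMPA TPM in the group means of shares, and the summed AMPA level went from 19.5 ± 7.12 TPM in NSC of E11.5 to 302 ± 68.9 TPM in NBN of E15.5 (SD, n = 3 each). Gria3 was high in NBN of E15.5, at 69.2, 63.4 and 72.2 TPM, against 18.7, 23.7 and 15.9 TPM at E18.5, and fell by 1.71 ± 0.42 on the log2 scale (adjusted p = 0.00286). Its change in NBN was below that in BP by a log2 value of -2.03 ± 0.60 (adjusted p = 0.0441), a call lost when any of 19 libraries was left out (-2.13 to -1.89, adjusted p from 0.0506 to 0.118). Gria4 went the other way in NBN, from 12.7, 9.65 and 13.3 TPM at E15.5 to 30.1, 28.3 and 23.9 at E18.5 (1.14 ± 0.38 (adjusted p = 0.0294)), a call lost when any of 5 libraries was left out (1.02 to 1.22, adjusted p from 0.0508 to 0.114), and it was the AMPA gene called higher in NBN than in BP (18 against 7.79 TPM in the means over days, 1.11 ± 0.19 (adjusted p = 2.21e-06)).

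**Figure D4:**
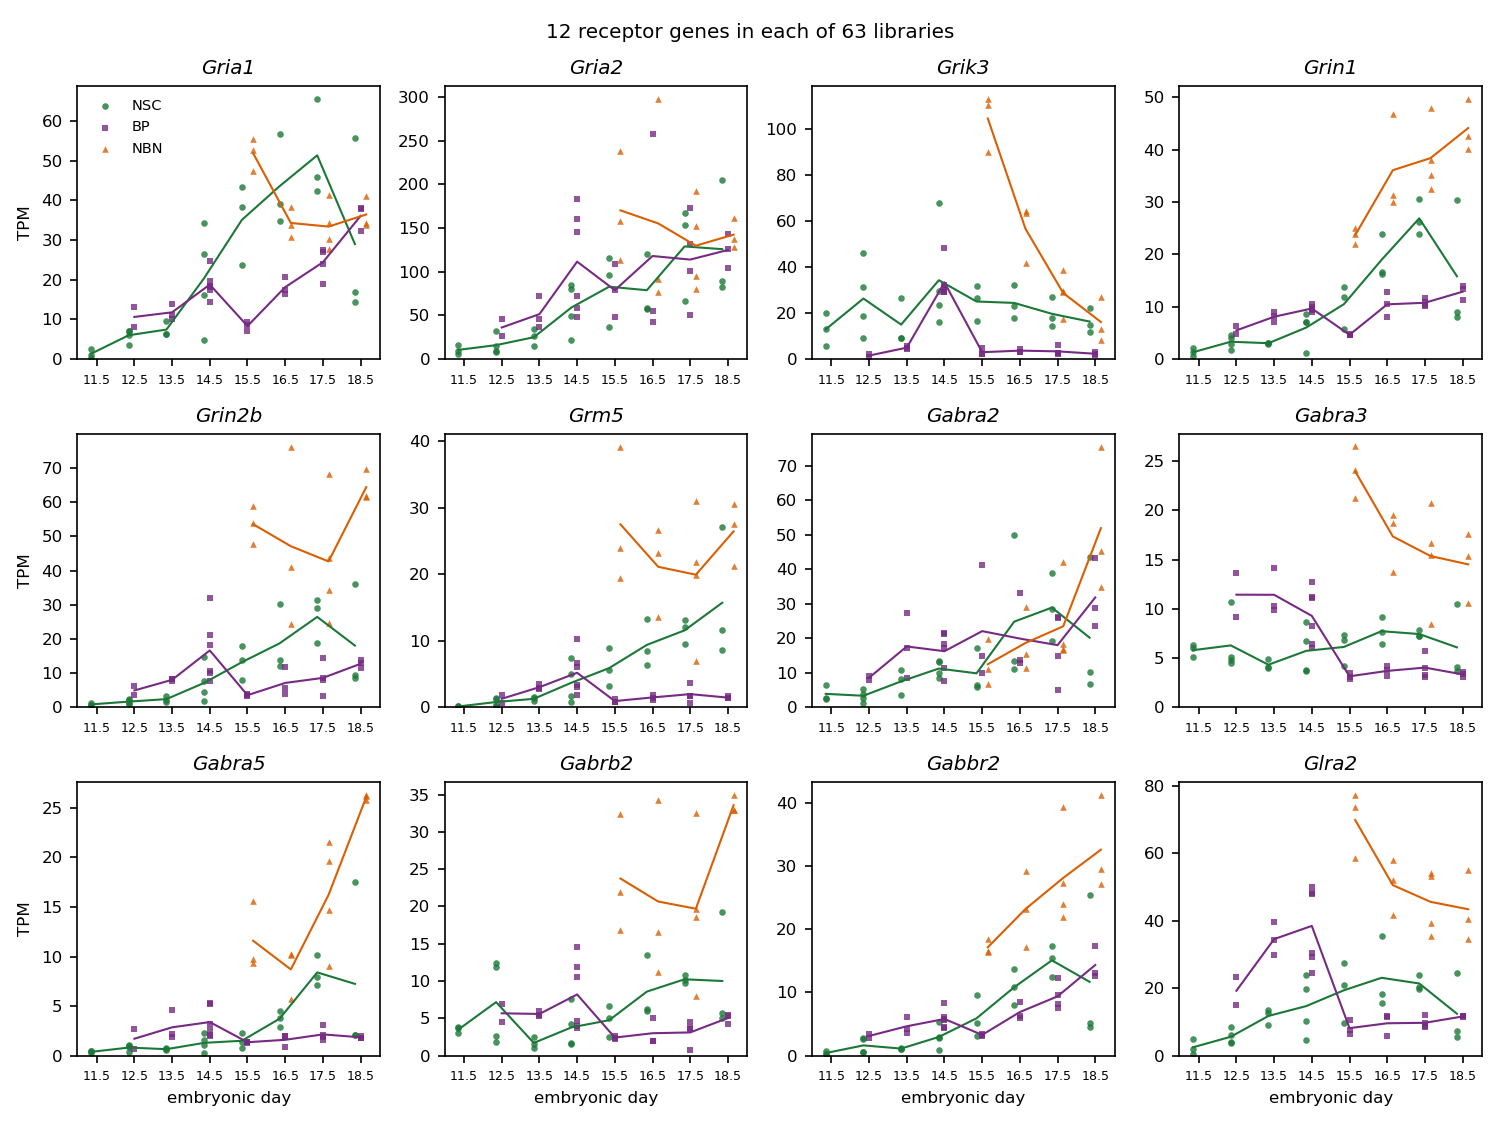
TPM (y axes) of 12 receptor genes in each of the 63 libraries against embryonic day (x axes), 1 point per library, with lines through the group means. NSC values rise to E17.5 for Gria1, Gria2, Grin1, Grin2b and Grm5, and the NBN points of Grik3, Grm5, Gabra3 and Gabra5 lie above the BP points of the same days.

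The region before the Gria2 start is shown because it held the closest match among these genes to the RE1 element, the site bound by REST, a repressor of neuronal genes in cells that are not neurons. Promoter windows of RefSeq (250 bases before to 50 after a gene start, build GRCm38.p6) were at hand for 37 of the 53 genes, 45 windows in all. The RE1 consensus, whose left part is TTCAGCACC and whose right part starts with GGACAGCGC, was searched on both strands for at least 15 of its 19 fixed letters, which 1 of the 45 windows had (2.22%, against 0.228% of 32851 windows of all genes). The Gria2 match had 17 of 19 letters on the opposite strand, starting at position -174 from the gene start. The left part TTCAGCACC alone occurs in 1 window, that of Grm2 (2.22%, against 0.37% of all windows), on the same strand as the gene. The 250 bases before each start are printed 5′ to 3′ on the gene's strand, the minus strand for both genes, at chr3:80802836-80803085 and chr9:106656110-106656359, with the matched stretch in capitals. In Gria2 the capitals cover the whole stretch, with its unmatched and unfixed letters.
Gria2: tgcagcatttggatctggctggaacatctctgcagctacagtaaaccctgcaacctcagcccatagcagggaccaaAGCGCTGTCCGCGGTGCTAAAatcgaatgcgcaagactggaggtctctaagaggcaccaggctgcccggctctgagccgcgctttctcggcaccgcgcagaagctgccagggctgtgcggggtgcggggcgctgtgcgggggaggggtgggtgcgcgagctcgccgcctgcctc
Grm2: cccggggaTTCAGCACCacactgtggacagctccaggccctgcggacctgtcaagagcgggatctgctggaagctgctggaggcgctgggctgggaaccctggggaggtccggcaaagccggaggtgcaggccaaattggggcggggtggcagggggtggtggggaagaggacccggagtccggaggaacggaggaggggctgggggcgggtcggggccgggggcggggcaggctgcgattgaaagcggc
These matches are of letters only, and no binding was measured. The E-box CAGATG, searched the same way, was in 3 of the 45 windows (6.67%, against 17.15% of all windows). The 45 windows had a median GC content of 59.7% and a median of 12 CpG sites, against 52.7% and 7 in all windows.

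Kainate receptors are built of Grik1 to Grik3, which form channels by themselves, and of Grik4 and Grik5, which need such a subunit as a partner. Grik3 (chromosome 4, 125490700 to 125714173, GRCm38) was called both in NBN against BP and in NSC against BP. In NBN it stood at 90.03, 113 and 110.4 TPM at E15.5, 63.5, 64.4 and 41.7 at E16.5, 38.6, 17.4, 29.1 and 29.7 at E17.5 and 12.9, 27.1 and 8.33 at E18.5. In BP of the same days it stood at 2.04, 2.05 and 4.95, 3.23, 3.25 and 4.61, 2.84, 2.56, 2.02 and 6.11 and 2.03, 3.18 and 1.78 TPM. No NBN library overlaps BP on any of the 4 days. The difference was 3.35 ± 0.22 (adjusted p = 1.3e-18). Within NBN the level dropped by 2.79 ± 0.42 on the log2 scale over the 4 days (adjusted p = 1.78e-06), which differed from the change in BP by -2.54 ± 0.59 (adjusted p = 0.00601) and from that in NSC by -2.16 ± 0.60 (adjusted p = 0.0132). The difference from NSC lost its call without NBN E18.5 replicate 3 (-1.84, adjusted p = 0.0614). Both slope differences lost their calls without E18.5.

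BP of E12.5 had the lowest Grik3 mean of the 19 groups, 1.55 TPM. BP of E14.5 did not share this low level or that of later BP. Its 6 libraries ranged from 29.1 to 48.2 (median 30.5) TPM, while the 3 BP libraries of E15.5 stood at 2.04, 2.05 and 4.95 TPM, a step of -3.15 ± 0.39 (adjusted p = 1.69e-07). That comparison was added after seeing the data. It called 6 of the 44 genes, all lower at E15.5 (Grik3, Gria1, Grin2b, Grm5, Gabra3 and Glra2), 13.6% against 1.46% of all tested genes. The newborn neuron marker sum had medians of 7067 and 6327 TPM in BP of E14.5 and E15.5, and 7192 TPM in BP of E12.5, where Grik3 was low. The first day with a separate NBN group is E15.5. Whether cells counted as NBN from E15.5 on were part of the BP sort before cannot be told from the labels, and was not tested. The step lost its call for Grm5 without BP E15.5 replicate 1 (-1.47, adjusted p = 0.0963) or without BP E15.5 replicate 2 (-1.495, adjusted p = 0.074) and for Gria1 when any of 8 libraries was left out (-1.15 to -0.98, adjusted p from 0.0593 to 0.17). In NSC, Grik3 was higher than in BP on all 7 days (23 against 7.46 TPM, 2.02 ± 0.16 (adjusted p = 1.08e-14)), with no overlap on 6 of them.

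Grik2, the most abundant channel-forming kainate gene of BP, showed the opposite difference. It stood at 58.9, 33.1 and 45.8 TPM in BP of E15.5 and 14.7, 9.41 and 13.2 TPM in NBN of that day, and was lower in NBN on all 4 days, 17.3 against 38.3 TPM (-1.09 ± 0.17 (adjusted p = 3.89e-07)). The call was lost without BP E16.5 replicate 1 (-0.97, adjusted p = 2e-06). Grik1 was low, with its highest values in NSC of E18.5, 5.78, 6.36 and 7.63 TPM, and was lower in NBN than in NSC (-1.12 ± 0.14 (adjusted p = 2.31e-09)). Under quantile scaling it lost this call (-0.97), and also the call of its rise in NSC (1.11, 0.74 under quantile scaling). Both Grik1 calls were also lost without E18.5, and that of the rise with library weights. Grik4 rose in NBN from 1.59, 1.13 and 1.82 TPM to 4.91, 5.09 and 7.85 TPM (1.41 ± 0.21 (adjusted p = 1.47e-06)). Grik5 was called in no comparison, and its group means lay between 64.1 and 129 TPM. The delta receptor gene Grid1, a synaptic organiser, rose in NSC from 4.69, 4.18 and 7.74 TPM at E11.5 to 24, 10.9 and 12.503 TPM at E18.5 (1.45 ± 0.20 (adjusted p = 2.14e-08)) and in NBN (1.27 ± 0.26 (adjusted p = 0.000234)). Its call in NSC was lost with library weights. Grid2ip, whose product binds the delta receptor, rose in NSC (1.79 ± 0.17 (adjusted p = 3.22e-13)) and in BP, from 0.258 and 0.326 TPM at E12.5 to 3.99, 3.78 and 3.36 TPM at E18.5 (2.19 ± 0.19 (adjusted p = 9.45e-14)). With E15.5 to E18.5 alone its rise in BP was not called.

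NMDA receptors need the subunit Grin1 together with a Grin2 subunit, and Grin2b is the form known to prevail in the embryonic forebrain. Grin1 (chromosome 2, 25291181 to 25319187) stood at 0.522, 1.35 and 2.09 TPM in NSC of E11.5 and at 30.5, 26.2 and 24 TPM at E17.5, rising by 3.34 ± 0.25 (adjusted p = 5.69e-16). In NBN it was at 25.1, 23.9 and 22.1 TPM at E15.5 and 42.6, 40.1 and 49.7 TPM at E18.5, against 4.74, 4.66 and 4.55 and 11.3, 13.9 and 13.4 TPM in BP. The groups do not overlap on these days. The difference between NBN and BP was 1.81 ± 0.16 (adjusted p = 1.38e-13), and that between NBN and NSC was 1.05 ± 0.17 (adjusted p = 4.71e-07), a call lost without NSC E15.5 replicate 1 (0.97, adjusted p = 2.75e-06), without NSC E18.5 replicate 2 (0.97, adjusted p = 2.78e-06) or without NSC E18.5 replicate 3 (0.99, adjusted p = 2.69e-06). The call between NBN and NSC was also lost without E18.5. The annotation has Grin1os on the opposite strand over 13.47% of the exonic bases of Grin1, and the library kit keeps no strand, so reads of the overlap cannot be told apart.

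Grin2b (chromosome 6, 135713233 to 136173511) followed Grin1. Its NSC libraries stood at 0.564, 0.715 and 1.31 TPM at E11.5, 1.74, 4.35, 14.9 and 7.62 at E14.5, 18.8, 29 and 31.4 at E17.5 and 36.1, 8.63 and 9.49 at E18.5. At E18.5, replicate 1, whose newborn neuron marker sum was 6379 TPM against 3486 and 3159 TPM, was the highest of the 3. The rise in NSC was 3.89 ± 0.36 (adjusted p = 3.39e-13). NBN held 47.8, 53.9 and 59 TPM at E15.5 and 69.7, 61.9 and 61.5 TPM at E18.5, and BP 3.58, 3.18 and 3.92 and 11.6, 12.9 and 13.7 TPM. NBN exceeded BP by 2.65 ± 0.23 (adjusted p = 6.49e-14) and NSC by 1.48 ± 0.24 (adjusted p = 6.39e-07).

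The makeup of the Grin2 transcripts differed between groups. In NSC of E11.5, Grin2d, a subunit with a wide embryonic expression, made up 56.4% ± 15 and Grin2b 32.6% ± 13.7 of the summed Grin2 TPM (mean ± SD, n = 3). At E17.5 the shares were 9.79% ± 2.49 and 84.3% ± 3.03. The summed Grin2 level behind these shares was low at E11.5, 2.67 ± 0.449 TPM, against 31.2 ± 6.95 TPM at E17.5. In NBN, Grin2b made up 93.8% to 96.3% in group means, and in BP 64.8% at E15.5 to 88.3% at E14.5. The summed level of all NMDA genes in NSC was 6.64 ± 1.62 TPM at E11.5, 64 ± 3.34 at E17.5 and 47.1 ± 30.4 at E18.5. In NBN it was 85.1 to 119 TPM. Grin2a, which joins later in postnatal life, had its highest group mean in NBN of E18.5, with 1.59, 1.24 and 2.08 TPM, and rose in NBN by 1.02 ± 0.16 (adjusted p = 5.95e-06), a call lost without NBN E15.5 replicate 2 (0.99, adjusted p = 9.96e-05), without NBN E16.5 replicate 3 (0.97, adjusted p = 1.15e-05) or without NBN E18.5 replicate 3 (0.92, adjusted p = 0.000255). Grin2c rose in NSC from 0.0142, 0.0998 and 0.0564 TPM to 2.43, 4.18 and 4.59 TPM (1.90 ± 0.13 (adjusted p = 9.15e-18)), and there NSC E18.5 replicate 1 was the lowest of the 3. Its change in NBN was below that in NSC, a log2 difference of -1.44 ± 0.23 (adjusted p = 1.19e-05), a call that was lost without E18.5 (-0.65). Grin3a, an inhibitory partner subunit, was higher in NBN than in BP (3.39 against 0.948 TPM, 1.13 ± 0.15 (adjusted p = 7.17e-09)). Grin2d and Grin3b were called in no comparison, with group means of 0.7585 to 2.94 and 2.19 to 4.36 TPM. On the opposite strand, Tmem259 overlaps 32.13% of the exonic bases of Grin3b, and Gm45441 9.66% of those of Grin2d. Reads of these overlaps cannot be told apart.

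**Figure D5:**
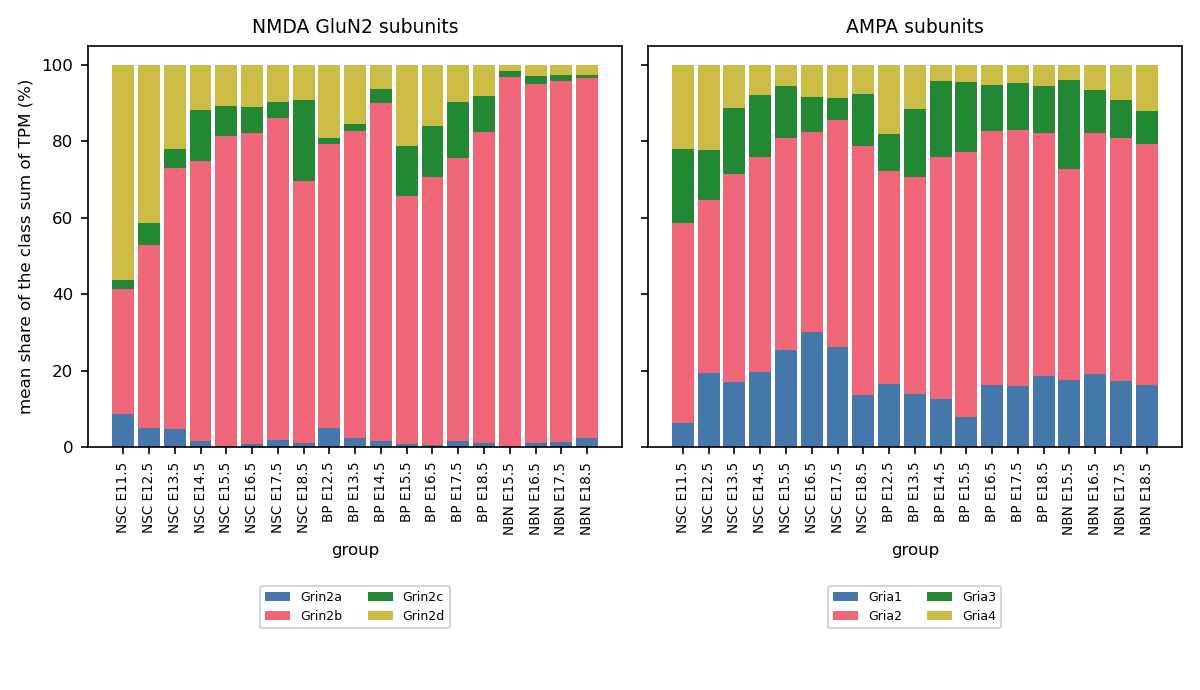
Mean share (y axis, percent) of each gene in the summed TPM of the Grin2 and of the AMPA genes, stacked, for the 19 groups (x axes). Grin2b goes from 32.6% in NSC of E11.5 to 84.3% at E17.5 and 68.4% at E18.5, and lies at 93.8% to 96.3% in NBN.

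The metabotropic receptors fall into group I (with Grm5), which raises intracellular calcium, and groups II (Grm2 and Grm3) and III (Grm4, Grm6, Grm7 and Grm8), which lower cyclic AMP. Grm5, Grm2 and Grm3 were higher in NBN than in BP. Grm5 (chromosome 7, 87584168 to 88134907) stood at 24, 19.5 and 39.1 TPM in NBN of E15.5 and 27.6, 30.6 and 21.2 TPM at E18.5. In BP of those days it was at 0.771, 0.835 and 1.22 and 1.37, 1.65 and 1.39 TPM, below each NBN library. The difference was 3.28 ± 0.22 (adjusted p = 3.13e-18). In NSC, Grm5 had 0.176, 0.0754 and 0.154 TPM at E11.5, 0.807, 1.64, 7.43 and 4.97 at E14.5, 13.1, 12.1 and 9.56 at E17.5 and 27.1, 8.57 and 11.6 at E18.5. Its group mean was higher at each of the 7 steps of a day, and the fitted rise was 3.96 ± 0.33 (adjusted p = 1.79e-14), more positive than in BP by 3.72 ± 0.51 (adjusted p = 2.93e-07). With E15.5 to E18.5 alone that difference was 0.81 and not called.

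Grm2, an autoreceptor of glutamatergic terminals, rose in NBN from 11.54, 8.91 and 13.51 TPM at E15.5 to 52.9, 46.9 and 40.8 TPM at E18.5 (1.89 ± 0.36 (adjusted p = 0.000126)). In BP it stood at 17.7 and 23.2 TPM at E12.5 and 5.97, 8.09 and 7.68 TPM at E18.5 and fell by 1.35 ± 0.33 on the log2 scale (adjusted p = 0.000655), but with E15.5 to E18.5 alone the sign turned (0.40, not called). Summed Cajal-Retzius markers (7 genes, of which none was at 0 in all libraries) had medians of 510.3, 423 and 199.6 TPM in BP of E12.5, E13.5 and E14.5 and 322 at E18.5, and their part in the fall was not tested. NBN exceeded BP in Grm2 by 1.86 ± 0.19 (adjusted p = 3.52e-12) and NSC by 1.17 ± 0.19 (adjusted p = 8.09e-07), the second of which was not called without E18.5 (0.80). Grm2 shares 9.6% of its exonic bases with Gm28111 on the opposite strand.

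Grm3, which astrocytes are known to express, was high in 2 places. In NBN it stood at 3.86, 3.30 and 6.17 TPM at E15.5 and 7.60, 9.53 and 4.99 TPM at E18.5, while all BP libraries of E15.5 lay at 0.378, 0.219 and 0.488 TPM (2.09 ± 0.17 (adjusted p = 4.25e-15) over the 4 days). In NSC it stood at 2.88, 4.96 and 3.01 TPM at E17.5 and 11.49, 8.99 and 13.7 TPM at E18.5. The libraries of E18.5 with low neuronal markers (replicates 2 and 3) lay on both sides of replicate 1 in Grm3, and their astrocyte marker sums were 354 and 450.4 TPM against 247. The rise of Grm3 in NSC was 2.51 ± 0.26 (adjusted p = 1.13e-11). Of group III, Grm7, a presynaptic receptor, was higher in NBN than in BP (3.22 against 0.619 TPM, 1.27 ± 0.15 (adjusted p = 7.96e-10)) and rose in NBN from 1.39, 1.20 and 0.950 to 4.46, 6.01 and 6.35 TPM (1.58 ± 0.30 (adjusted p = 0.000114)). Its rise in NSC (1.32 ± 0.24 (adjusted p = 4.82e-06)) lost its call without NSC E18.5 replicate 1 (0.98, adjusted p = 0.00016). Grm4 was called in no comparison. Its NSC libraries of E12.5 were split, at 9.07, 9.17, 0.635 and 2.96 TPM in replicates 1 to 4. Grm8 fell in BP, from 1.95 and 3.24 TPM at E12.5 to 0.105, 0.306 and 0.236 TPM at E18.5 (-1.41 ± 0.22 (adjusted p = 9.34e-07)), which was not called with E15.5 to E18.5 alone (-0.03).

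The alpha subunit sets the pharmacology and much of the kinetics of a GABA-A receptor, with Gabra2, Gabra3 and Gabra5 known as early forms. Gabra3 was high in NBN of E15.5, at 24.1, 21.3 and 26.5 TPM, and in early BP, at 9.22 and 13.7 TPM at E12.5. BP stood at 3.08, 2.84 and 3.53 TPM at E15.5 and 3.39, 3.59 and 3.06 TPM at E18.5. All NBN libraries lie above all BP libraries of their day, and the difference was 2.00 ± 0.14 (adjusted p = 2.98e-17). In BP, Gabra3 fell by 1.76 ± 0.25 on the log2 scale over E12.5 to E18.5 (adjusted p = 6.2e-08), and the step from E14.5 to E15.5 alone was -1.27 ± 0.25 (adjusted p = 0.000897). Within E15.5 to E18.5 the BP change was 0.084, of the opposite sign and not called.

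Gabra5 was higher in NBN than in both other cell types. Its BP libraries stood at 1.37, 1.37 and 1.30 TPM at E15.5 and 1.82, 1.79 and 1.93 TPM at E18.5, and its NBN libraries at 9.77, 9.37 and 15.6 and 26.2, 25.8 and 26.3 TPM. The difference was 2.49 ± 0.19 (adjusted p = 5.59e-16), and NBN also exceeded NSC by 1.61 ± 0.19 (adjusted p = 8.41e-10). In NSC it went from 0.263, 0.414 and 0.442 TPM at E11.5 to 7.89, 10.2 and 7.13 TPM at E17.5 (2.57 ± 0.29 (adjusted p = 1.38e-10) over all days), and at E18.5 it was at 17.55, 2.11 and 2.06 TPM, with replicate 1 apart from the others. The rise of Gabra5 in NBN (1.27 ± 0.37 (adjusted p = 0.0125)) was lost without NBN E15.5 replicate 2 (1.16, adjusted p = 0.0605).

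Gabra2 and Gabra4 rose with age, and neither was called between cell types. Gabra2 stood at 2.85, 2.52 and 6.38 TPM in NSC of E11.5 and 28.5, 38.8 and 19.3 TPM at E17.5 (2.53 ± 0.43 (adjusted p = 1.63e-06)), and in NBN at 19.7, 11.1 and 6.71 TPM at E15.5 and 75.4, 34.9 and 45.4 TPM at E18.5 (1.91 ± 0.55 (adjusted p = 0.0108)). The NBN call was lost without NBN E15.5 replicate 3 (1.59, adjusted p = 0.0716) or without NBN E18.5 replicate 1 (1.63, adjusted p = 0.0701). Gabra4, a subunit of receptors outside synapses, rose in all 3 cell types, by 2.09 ± 0.22 (adjusted p = 1.81e-11) in NSC, 1.92 ± 0.25 (adjusted p = 1.21e-08) in BP and 1.61 ± 0.28 (adjusted p = 2.5e-05) in NBN. Its NSC libraries of E18.5 held 11.7, 11.4 and 14.6 TPM, all above those of E17.5 (3.33, 6.05 and 3.33 TPM). Among the alpha genes, the share of Gabra3 went from 49.3% ± 11.49 to 13% ± 1.62 in NSC between E11.5 and E18.5, and from 44.8% ± 3.73 to 13.4% ± 4.41 in NBN between E15.5 and E18.5 (mean ± SD, n = 3 each). Gabra2 made up 73.3% ± 13.1 of the alpha TPM in BP of E15.5 and 23.1% ± 10.6 in NBN of that day.

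The beta subunits are needed for assembly, and the gamma subunit brings receptors to synapses. Gabrb2 stood at 22, 16.9 and 32.4 TPM in NBN of E15.5 and 34.9, 32.9 and 32.9 TPM at E18.5, against 2.34, 2.24 and 2.66 and 4.30, 5.51 and 5.31 TPM in BP. Over the 4 days it was higher in NBN than in BP (24.4 against 3.39 TPM, 2.51 ± 0.25 (adjusted p = 3.25e-12)) and than in NSC (1.47 ± 0.26 (adjusted p = 3.08e-06)).

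In NSC, Gabrb1 rose by 1.76 ± 0.18 (adjusted p = 5.17e-12), Gabrb2 by 1.43 ± 0.39 (adjusted p = 0.00128) and Gabrg1 by 1.40 ± 0.13 (adjusted p = 3.66e-13). The call of Gabrb2 was lost with library weights (0.80) and as the last day minus the first (1.06), and those of Gabrb1 and Gabrg1 without E18.5 (0.98 and 0.53). Gabrb2 went from 2.99, 3.68 and 3.82 TPM at E11.5 to 9.74, 10.1 and 10.8 TPM at E17.5. The NSC libraries of E12.5 were split for Gabrb2. Replicates 1 and 2 held 12.4 and 11.8 TPM of Gabrb2, and replicates 3 and 4 held 1.82 and 2.65 TPM. Their newborn neuron marker sums were 5023, 4766, 3211 and 3011 TPM, and their interneuron sums 406, 1146, 224 and 622 TPM. The call of Gabrg3, at 1.04, was lost without NSC E16.5 replicate 1 (0.99, adjusted p = 2.86e-08) or without NSC E18.5 replicate 1 (0.97, adjusted p = 3.93e-07). Gabrb1 and Gabrg1 were highest in NSC of E18.5, at 8.49, 6.14 and 6.98 and 3.79, 3.23 and 4.30 TPM. Both also rose in NBN (1.39 ± 0.23 (adjusted p = 6.88e-06) and 1.12 ± 0.16 (adjusted p = 1.01e-06)), Gabrg1 not under quantile scaling (0.98).

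Among the remaining GABA-A genes, Gabrd, the subunit of receptors that carry tonic current, was higher in NBN than in BP, at a low level. Its difference between NBN and NSC was not called. All 13 NBN libraries held 0.945 to 3.96 TPM and all BP libraries of the same days 0 to 0.266 TPM, with no overlap. The difference was 1.28 ± 0.08 (adjusted p = 3.41e-18), on a scale that understates it. Gabre fell in NSC, from 2.92, 1.97 and 2.40 TPM at E11.5 to 0.495, 0.305 and 0.573 TPM at E18.5 (-1.30 ± 0.14 (adjusted p = 2.85e-11)). Gabrq was called in no comparison and had no group mean above 1.05 TPM.

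The GABA-B receptor is an obligate pair, in which Gabbr1 binds GABA and Gabbr2 carries the complex to the surface and couples it to the G protein. Gabbr1 was the more abundant gene in all groups. Gabbr1 stood at 40.9, 59.4 and 78.6 TPM in NSC of E11.5, 282, 238 and 263 TPM at E17.5 and 235, 154 and 153 TPM at E18.5, and rose by 1.78 ± 0.14 (adjusted p = 6.65e-16). Gabbr2 had 0.292, 0.211 and 0.695 TPM at E11.5, 17.4, 15.4 and 12.47 at E17.5 and 25.3, 5.16 and 4.51 at E18.5, and rose by 3.46 ± 0.28 (adjusted p = 4.41e-15). At E18.5, replicate 1 lay above the E17.5 libraries in Gabbr2 and the others lay below them. In BP, Gabbr2 rose by 1.64 ± 0.32 (adjusted p = 2.71e-05), from 2.82 and 3.39 TPM at E12.5 to 13.1, 12.6 and 17.4 TPM at E18.5. NBN held 16.53, 18.48 and 16.4 TPM of it at E15.5 and 29.5, 27.1 and 41.2 at E18.5, more than BP by 1.57 ± 0.18 (adjusted p = 1.68e-10) and than NSC by 1.29 ± 0.18 (adjusted p = 5.48e-08). For Gabbr1 the difference between NBN and BP, 0.59 ± 0.09 (adjusted p = 1.04e-07), was under the limit.

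Glra2, the alpha subunit of the embryonic glycine receptor, is X-linked (X, 165129017 to 165327393) and was the main alpha gene here, since the other alpha genes stayed under 1 TPM. NBN held 73.7, 58.7 and 77.1 TPM at E15.5 and 40.5, 55.1 and 34.5 TPM at E18.5, and BP 6.40, 7.45 and 10.5 and 11.7, 11.8 and 11.3 TPM. The groups lie apart, by 2.30 ± 0.20 (adjusted p = 4.91e-14), and NBN exceeded NSC by 1.52 ± 0.20 (adjusted p = 1.45e-08). Before E15.5, BP held more of it. The 6 libraries of E14.5 ranged from 24.6 to 50.1 (median 39.2) TPM, and the step to E15.5 was -2.08 ± 0.36 (adjusted p = 0.000117). In NSC, Glra2 went from 0.601, 1.97 and 4.81 TPM at E11.5 to 24, 19.8 and 20.4 at E17.5 (2.11 ± 0.31 (adjusted p = 7.66e-08) over all days), and at E18.5 it was at 24.4, 7.16 and 5.66 TPM. Its fall in BP over E12.5 to E18.5, -1.57 ± 0.35 (adjusted p = 0.00025), turned to 0.46 (not called) with E15.5 to E18.5 alone. Glrb, the subunit that binds the synaptic scaffold gephyrin, rose in NSC from 11, 10.1 and 12 TPM to 38.4, 34.7 and 39.7 TPM (1.65 ± 0.17 (adjusted p = 5.59e-12)), and there the 3 libraries of E18.5 spanned 34.7 to 39.7 TPM.

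In NSC of E18.5 the receptor genes were split by library. For Gria1, Grin1, Grin2b, Grm5, Gabra5, Gabbr2 and Glra2, replicate 1 was the highest of the 3 libraries, as in Grin1 with 30.4, 8.11 and 8.93 TPM. For Grm3, Gabra4, Grin2c, Grik1, Gabrg1, Glrb and Gria3 it was not, as in Gria3 with 22.9, 20.6 and 24.5 TPM. Replicate 1 was also the highest for Grid1, Gabrb1, Gabbr1 and Grin3a. All these genes are examples sorted by their values, with no count over the 44 tested genes, so the split is a description. Replicate 1 also had 3466 TPM of summed NSC markers (10 genes), against 7010.4 and 7059 TPM. Without it and the 5 other libraries set apart, 29 of 44 genes were called over time in NSC, against 30 with them.

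A list of 76 further genes of these pathways, 74 of them tested, was counted in the same way. In NBN against BP 23 were higher and 5 lower (37.8% against 10.8% of all tested genes), and in NSC over time 35 rose and 3 fell (51.4% against 23%). Of 17 auxiliary genes of AMPA and kainate receptors, which set trafficking and gating, 12 were higher and 1 lower in NBN than in BP. Cacng4 stood at 148 against 47 TPM (1.64 ± 0.09 (adjusted p = 1.23e-20)) and Syndig1 differed by 1.77 ± 0.14 (adjusted p = 1.12e-15), while Cacng5 was lower, 4.51 against 16.7 TPM (-1.55 ± 0.12 (adjusted p = 3.35e-16)). In NSC 14 of the 17 rose, with Cacng5 (4.07 ± 0.18), Shisa9 (3.90 ± 0.24) and Cnih3 (3.09 ± 0.25) of smallest adjusted p. Cacng5 thus rose in NSC and was the auxiliary gene that was lower in NBN. Of 17 excitatory scaffold genes, 6 were higher in NBN than in BP, among them Grip2 (25 against 3.83 TPM, 2.55 ± 0.17), Shank1 (1.88 ± 0.17) and Dlg2 (1.86 ± 0.17). In NSC 9 rose and 1 fell, with Dlgap1 from 1.09 to 33.4 TPM (4.32 ± 0.25 (adjusted p = 6.21e-20)).

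Of 12 tested genes of inhibitory postsynaptic and GABA-B auxiliary proteins, 1 was higher in NBN than in BP, Iqsec3 (10.2 against 2.77 TPM, 1.60 ± 0.14 (adjusted p = 1.1e-13)), against 5.75% of all tested genes, and 5 rose in NSC, against 14.8%, among them the adhesion gene Nlgn2 (1.17 ± 0.12). In transmitter synthesis and vesicle loading (11 genes), 3 were higher and 1 lower in NSC than in BP, against 2.56% and 0.466% of all tested genes. Those higher were the GABA genes Slc32a1, Gad1 and Gad2. Slc32a1, the vesicular GABA transporter, stood at 16.3 against 0.826 TPM (3.05 ± 0.20 (adjusted p = 4.2e-18)), and Gad1 and Gad2, which make GABA, differed by 3.19 ± 0.22 (adjusted p = 5.46e-17) and 1.98 ± 0.18 (adjusted p = 8.44e-13). These 3 genes are also on the interneuron list, which was high in NSC. Slc17a6, a vesicular glutamate transporter, was lower in NBN than in BP, 23.9 against 95.4 TPM (-2.01 ± 0.17 (adjusted p = 3.67e-14)).

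Of 8 tested transmitter uptake genes, 5 rose in NSC, against 14.8% of all tested genes, among them the GABA transporter Slc6a11 (1.90 to 63.1 TPM, 4.46 ± 0.18 (adjusted p = 1.06e-25)), the neuronal glutamate transporter Slc1a1 (4.12 ± 0.22) and the glial one Slc1a3 (2.88 ± 0.21). Of 9 genes of chloride transport, 1 was higher and 1 lower in NBN than in BP, against 5.75% and 5.09% of all tested genes. Slc12a5, which exports chloride in mature neurons, stood at 3.37 against 0.977 TPM (1.17 ± 0.24 (adjusted p = 4.9e-05)), and Slc12a7 was lower, 10.4 against 25.7 TPM (-1.23 ± 0.07 (adjusted p = 1.02e-19)). Slc12a2, which imports chloride and was named here after its values were seen, had means of 17.6 TPM in NBN and 25.9 TPM in BP (-0.52 ± 0.15 (adjusted p = 0.00203), not called) and was called in no comparison.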

How the data were processed

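RNA of 63 libraries was made with the TruSeq RNA v2 kit from papain-dissociated, sorted cells after TRIzol extraction, and single 50 base reads were taken, per the labels' protocols. Per the submitters' processing notes, which name kallisto 0.43.0 and the builds mm10 and GRCm38.p2, the authors quantified transcripts and deposited TPM per gene. No counts were used, so the depth is unknown, and the spread between libraries is the measure of precision. Above 0 TPM were 16823 to 21890 genes per library. The 15231 genes that reached 1 TPM in 3 or more libraries were fitted as log2(TPM + 1) with limma 3.58.1 in R 4.3.3, with 1 mean per group over all 63 libraries, trended moderated variances and Benjamini-Hochberg adjustment over all genes. Cell types were compared as the mean difference over shared days, with the TPM means of those comparisons taken over days. Changes over time are the least-squares slope through group means times the span, and slope differences are contrasts of the same model. The script was tested on simulated data. Named are genes of at least 5 TPM in a group mean that were called in a comparison, the highest gene of each class, the genes not tested, and up to 3 called genes of smallest adjusted p per pathway list. Some items are counted but not reported here. Other genes were named after their values were seen. Members, lists and comparisons were chosen with earlier results of these data known. Positions and exon overlaps come from the GENCODE vM21 annotation (GRCm38), and promoters from RefSeq (GRCm38.p6). Tried as alternatives were a pseudocount of 0.1 or of 5, leaving out the low-value filter or raising it to 5 TPM, quantile and median-of-ratios scaling, library weights, a Y-linked covariate, only the libraries of a contrast, a block on replicate number, leaving out days or libraries, and the last day minus the first.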

Additional observations from a re-analysis of the deposited data

Results flagged for a closer look

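These results differ between cell types by the limma test of the difference of slopes, or hold a library far from the others of its group. The log2 change over E12.5 to E18.5 was more positive in NSC than in BP for the glutamate receptor genes Gria1 (1.10), Gria4 (1.63), Grik1 (1.41), Grin1 (1.80), Grin2b (2.71), Grin3a (1.94), Grm2 (2.76), Grm3 (2.65), Grm5 (3.72), Grm7 (1.31) and Grm8 (1.21), and for the GABA and glycine receptor genes Gabra3 (2.08), Gabra5 (2.52), Gabrb1 (1.16), Gabrb2 (2.14), Gabrg3 (1.00), Gabbr2 (1.26) and Glra2 (2.61). In these genes NSC levels were mostly lowest at E11.5 to E13.5, and BP levels before E15.5 lay above or near those of E15.5. The change over E15.5 to E18.5 was less positive in NBN than in BP for Gria1 (-2.38), Gria3 (-2.03), Grik3 (-2.54) and Grid2ip (-1.20). It was less positive in NBN than in NSC for Gria3 (-1.93), Grik3 (-2.16), Grm3 (-2.05) and Grin2c (-1.44). Of the differences between NSC and BP, that of Gabrg3 was lost when any of 20 libraries was left out (0.92 to 1.00), that of Gabbr2 without NSC E18.5 replicate 1 or BP E12.5 replicate 2 (0.80 to 1.20, adjusted p up to 0.115), that of Grm7 without either of the same libraries (0.94 to 1.04, adjusted p up to 0.0541), that of Grik1 without BP E12.5 replicate 2 (0.90), and that of Gria1 when any of 15 libraries was left out (0.72 to 1.13). Without the 6 libraries set apart for their marker sums, Gria1 (0.58), Gabrg3 (0.94), Gabbr2 (0.77) and Grm7 (0.90) were not called. Between NBN and BP, Grid2ip lost its call without BP E15.5 replicate 3 (-0.97, adjusted p = 0.0708), and Gria3 when any of 19 libraries (-2.13 to -1.89) or those 6 together (-1.91) were left out. Gria3 and Grik3 also lost their calls between NBN and BP without E18.5. Between NBN and NSC, Gria3 lost its call when any of 7 libraries was left out (-1.92 to -1.75, adjusted p from 0.05 to 0.076) and Grik3 without NBN E18.5 replicate 3 (-1.84). These comparisons share libraries, so the lists are not independent.

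A library lay far from the rest of its group in 10 of 140 tests of a named gene in a group of 4 to 10 libraries, where chance flags about 1 in 20. In BP of E17.5, replicate 2 was low in Gria3 (6.72 TPM), and replicate 4 was high in Gabre (0.878 TPM) and Grik4 (5.23 TPM). In NBN of E17.5, replicate 1 was high in Gabra2 (42.2 TPM), and replicate 2 was low in Gabra4 (2.37 TPM) and Grm7 (1.65 TPM). In NSC, the libraries apart were replicate 2 of E12.5 in Gabra3 (10.7 TPM, high), replicate 4 of E12.5 in Gabrb1 (1.33 TPM, high) and replicate 1 of E14.5 in Grin1 (1.14 TPM, low). In BP of E14.5, replicate 1 was high in Grik3 (48.2 TPM).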

How the results depend on the processing

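Counts are of the 44 tested genes. A pseudocount of 5 lowered them to 12 for NBN against BP, 4 for NBN against NSC, 18, 7 and 5 for the changes in NSC, BP and NBN, 13 for the slope difference of NSC and BP and 3 for the BP step from E14.5 to E15.5. A pseudocount of 0.1 gave 4 for NSC against BP. The minimum of 5 TPM gave 3 and leaving out E18.5 gave 0 (with slopes scaled to the full span) for the slope difference of NBN and NSC, and library weights gave 9 for that of NBN and BP. Leaving out NSC of E12.5 or of E14.5 gave 2 for NSC against BP, and the last day minus the first gave 8 for the slope difference of NSC and BP. With E15.5 to E18.5 alone, added after seeing the data, the counts were 6 for NSC against BP, 7 for the BP change and 5 for the slope difference of NSC and BP. There the signs turned for the BP change of Gabra3 (0.084), Glra2 (0.46) and Grm2 (0.40), and for the slope difference of Gria1 (-2.28), Gria4 (-0.12), Gabra3 (-0.19), Gabbr2 (-1.09), Glra2 (-1.15), Grin1 (-0.69) and Grin2b (-1.16). Without E18.5 the NBN changes of Gria4, Gabra2, Gabra5, Gabrg1 and Grin2a were not called. For these settings the cause was not tested. Leaving out each library in turn gave 1 to 2 calls for NSC against BP, 19 to 20 for NBN against BP, 11 to 16 for NBN against NSC, 28 to 30, 12 to 15 and 10 to 15 for the changes in NSC, BP and NBN, 16 to 22, 2 to 4 and 3 to 6 for the slope differences of NSC and BP, NBN and BP, and NBN and NSC, and 4 to 6 for the BP step. The 2 for the slope difference of NBN and BP came without BP E15.5 replicate 3. Kept in every setting were 1 of 1 call for NSC against BP, 12 of 20 for NBN against BP, 4 of 14 for NBN against NSC, 18 of 30, 2 of 13 and 3 of 15 for the changes in NSC, BP and NBN, 1 of 21, 1 of 4 and 0 of 5 for the slope differences of NSC and BP, NBN and BP, and NBN and NSC, and 2 of 6 for the BP step. Kept with each single library left out were, in the same order, 1, 19, 11, 28, 11, 9, 15, 2, 2 and 4. The labels do not say that replicate numbers pair libraries, and not every same-numbered pair had correlated deviations over 0.1. Between BP and NBN 12 of 13 pairs did (median 0.369, lowest -0.149) and 11 of 13 correlated best with their own number, a hint from the data, not from the design. Between NSC and BP 7 of 21 pairs did. A replicate block on the number gave 2 for NSC against BP and 3 for the BP step, and a replicate block on day and number gave 8 for the slope difference of NBN and BP, against 4 without it. Quantile scaling moved the share of higher among all called genes from 29.4% to 42.3% for NBN against NSC, from 64.4% to 53.2% for the NSC change, from 61.1% to 50.3% for the BP change, from 42.6% to 60.5% for the slope difference of NBN and BP and from 15.7% to 41.6% for that of NBN and NSC. Median-of-ratios scaling gave 56.4% and 27.7% for the last pair. The median of all genes in both was -0.12 as deposited. Depth cannot be given from TPM.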

Other observations

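Many of these genes lie side by side on the chromosomes. With neighbours taken within 1000 kb, 18 of the 53 lie in 6 clusters (GENCODE vM21, GRCm38), and 6 of the 53 are on the X chromosome. On chromosome 5 (70751047 to 72149037), none of Gabrg1, Gabra2, Gabra4 and Gabrb1 was called between NBN and BP (-0.36, 0.11, 0.11 and 0.68), and all 4 rose in NSC over time (1.40, 2.53, 2.09 and 1.76). On the X chromosome (72255999 to 72842602), Gabra3 was called higher in NBN than in BP (2.00), and its neighbours Gabre and Gabrq were not (-0.10 and 0.09). Gria2 and Glrb on chromosome 3 (80681450 to 80913660) both rose in NSC (3.70 and 1.65) and were not called between NBN and BP. Gabrr2 and Gabrr1 on chromosome 4 were not tested. Neighbours were set side by side after their values were seen, and no test of position was made. Gabra4 and Gabrb1 start on opposite strands and share 46 exonic bases, over which reads cannot be told apart.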
